A study of Mus musculus with 32 samples.

Results

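A set of 10 genes of the NRF2-driven response to oxidants and electrophiles, the breakdown of heme and the storage of iron was followed through mouse lung from before birth to adulthood. They were the listed genes Nfe2l2, Nqo1, Ephx1, Aox1, Hmox1, Blvrb, Abcc1, Fth1, Ftl1 and Osgin1. Each was represented by its probe set with the highest mean signal over all arrays. Of the 10 genes, 9 had a probe set that the platform annotation gives to 1 gene alone, and these 9 were among the 13345 genes tested in the whole series. Every Ftl1 probe set also names the pseudogene Ftl1-ps2, so its brightest one is given as the Ftl1/Ftl1-ps2 probe set and was tested only in a fit over all 27031 probe sets kept.

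NRF2, the protein made from Nfe2l2, is a transcription factor that KEAP1 holds in the cytoplasm and marks for degradation until oxidants or electrophiles modify KEAP1. It then pairs with small MAF proteins on antioxidant response elements and raises the transcription of genes for detoxification, glutathione supply, heme breakdown and iron storage, while BACH1 competes for the same elements. In mouse lung it is known as a protective factor against injury by high oxygen. Much of its control acts on the protein, so the level of Nfe2l2 mRNA is not a measure of NRF2 activity.

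The study set mice lacking glutathione reductase (Gsr-KO, written KO below) against Gsr wild-type mice (WT), all on the C3H/HeN strain. Glutathione reductase returns oxidized glutathione to its reduced form. Lungs were taken at embryonic day 19 (E19) without exposure, at postnatal day 5 (P5) directly after 100% oxygen (hyperoxia) or room air from birth with the dams, and at day 56 (P56) after the same newborn exposure. Each array held the RNA of a part of the lung of 1 mouse, with 4 mice per genotype at E19 and 3 in each of the 8 later groups, 32 arrays in all. The labels do not give sex or litter, and how the Gsr gene was inactivated is not given in them.

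Values are MAS5 signals on a linear scale. They are set side by side for 1 probe set across arrays and never between genes, since probe sets differ in brightness. Changes are differences of group means of log2(signal + 26.3), which understates the change of dim genes, and fold values are on that scale. A change was called where the adjusted p of limma, after Benjamini-Hochberg adjustment over all genes tested, was under 0.05. In whole lung, a change in the share of a cell type and a change in RNA per cell cannot be told apart.

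The Gsr probe set read 138 to 257 on the 16 KO arrays and 498 to 1541 on the 16 WT arrays, without overlap. The tissue label fits the markers: Sftpc, of alveolar type 2 cells, read 12636 to 28636 and Ager, of type 1 cells, 15943 to 33599 over all arrays. At P5, 2 arrays stand apart from their groups. The summed signal of 14 p53 target genes was 41986 on WT air replicate 3, against 21886 at most on the other WT air arrays, and 22735 on KO hyperoxia replicate 1, against 45608 at least on the other KO hyperoxia arrays. These arrays stood out by the levels of p53 and NRF2 targets, the same kind of measure that is reported here, so P5 results are given with and without them, and a larger number of calls without them follows in part from that choice. Separately, KO E19 replicate 1 and WT P56 hyperoxia replicate 2 had high signal ratios between the 3' and 5' control probe sets, with log2 values of 4.37 and 2.84 as the mean of actin and Gapdh, against at most 1.55 on the other arrays.

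The stretches upstream of a start given by RefSeq (GRCm38.p6) are shown for Ephx1, Nqo1 and Aox1, which with Hmox1 were the genes called for hyperoxia at P5 once 2 arrays were left out, and for Nfe2l2. They were searched on both strands for TGACNNNGC, the core of the antioxidant response element, and for TGAGTCA, the AP-1 element, whose reverse complement TGACTCA can share bases with the core element. Capitals mark every match, and all 4 are written 5' to 3' on the strand of the gene. The windows are chr1:181017570-181017819 for Ephx1 on the minus strand, chr8:107403206-107403455 for Nqo1 on the minus strand, chr1:58029719-58029808 for Aox1 on the plus strand, cut to 90 bases where the annotated gene begins, and chr2:75704664-75704913 for Nfe2l2 on the minus strand.
Ephx1: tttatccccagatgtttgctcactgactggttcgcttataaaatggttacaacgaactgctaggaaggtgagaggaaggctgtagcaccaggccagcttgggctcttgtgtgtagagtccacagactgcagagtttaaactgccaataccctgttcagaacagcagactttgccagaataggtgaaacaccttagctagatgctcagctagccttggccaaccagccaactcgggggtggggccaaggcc
Nqo1: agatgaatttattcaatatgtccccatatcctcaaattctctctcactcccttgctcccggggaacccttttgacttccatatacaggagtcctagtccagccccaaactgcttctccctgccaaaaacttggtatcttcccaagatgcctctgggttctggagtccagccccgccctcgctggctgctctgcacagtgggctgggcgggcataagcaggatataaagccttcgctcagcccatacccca
Aox1: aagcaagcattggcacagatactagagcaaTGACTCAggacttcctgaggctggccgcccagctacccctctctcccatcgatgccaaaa
Nfe2l2: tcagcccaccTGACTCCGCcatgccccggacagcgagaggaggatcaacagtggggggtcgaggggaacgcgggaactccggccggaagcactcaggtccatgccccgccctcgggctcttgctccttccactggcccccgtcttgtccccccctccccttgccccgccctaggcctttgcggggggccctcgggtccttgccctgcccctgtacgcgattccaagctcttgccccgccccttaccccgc

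RefSeq entries were matched for 8 of the 10 genes, with no entry used for Hmox1 and Abcc1. Within 250 bases upstream of a start in that table, the core antioxidant response element was found in 1 of the 8, Nfe2l2, as TGACTCCGC from position -240, counted from the start of the gene. The same motif stands in 10.2% of 32851 mouse promoters of that length. TGAGTCA was found in the windows of Aox1 and Osgin1, both on the strand opposite to the gene. The Osgin1 window, chr8:119436897-119437146, lies inside the annotated gene (chr8:119425882-119446257), upstream of an internal start. TGAGTCA stands in 4.46% of all promoters. A match is a description of letters, and elements known to act from farther away lie outside these windows. Nqo1, Hmox1 and Osgin1 lie on chromosome 8 like Gsr, 73.7, 41.4 and 85.8 Mb from it.

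At P5, the 2 genes with the largest changes under hyperoxia were Ephx1 and Hmox1, whose means were higher in hyperoxia in both genotypes. Over all 12 P5 arrays none of the 9 genes was called in KO lungs, in WT lungs or in the mean of both genotypes, where the whole series had 46 (0.345%), 1 (0.00749%) and 12 (0.0899%) called genes. At an unadjusted p under 0.05 there were 4, 2 and 4 of the 9, against 5.84%, 3.06% and 6.29% of all genes. Without both arrays that stood apart, Ephx1 and Hmox1 were called in each genotype, where 94 genes (0.704%) were called in KO and 17 (0.127%) in WT lungs. With only the array of the same genotype left out, Ephx1 and Hmox1 were called in KO and Ephx1 alone in WT. In the mean of both genotypes Nqo1 and Aox1 joined them, 4 of 9, against 149 genes (1.12%). The median change of the 9 genes in that mean was 0.56 without both arrays and 0.34 with them, beside a median of -0.01 over all genes either way.

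Ephx1 encodes microsomal epoxide hydrolase, which opens reactive epoxides to diols. It read 1235, 3860 and 4114 in KO hyperoxia lungs, against 1190, 1313 and 1179 in KO air lungs. It read 2915, 3350 and 3152 in WT hyperoxia lungs, against 989, 1013 and 3806 in WT air lungs. Apart from KO hyperoxia replicate 1, which read like air lungs, and WT air replicate 3, which read like hyperoxia lungs, exposed and unexposed lungs were far apart. Over all arrays the fold was 2.18 in KO (log2 1.12 ± 0.37 SE, limma adjusted p = 0.41) and 1.98 in WT (log2 0.99 ± 0.37 SE, limma adjusted p = 1). Without both arrays it was 3.20 in KO (limma adjusted p = 2.54e-05) and 3.08 in WT (limma adjusted p = 6.02e-05), with 2 or 3 arrays in each group. Leaving out only the array of the same genotype gave the same changes with higher adjusted p. These were log2 1.68 in KO (limma adjusted p = 0.0174) and 1.62 in WT (limma adjusted p = 0.0496). Leaving out the array of the other genotype as well only lowers the shared estimate of the spread.

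Hmox1 encodes heme oxygenase 1, which cleaves heme to biliverdin, carbon monoxide and iron. It read 429, 1258 and 865 in KO hyperoxia lungs, against 367, 463 and 410 in KO air lungs. In WT it read 730, 1574 and 1511 in hyperoxia lungs, against 453, 432 and 803 in air lungs. The overlap in KO came from hyperoxia replicate 1 alone, and that in WT from air replicate 3, which read above hyperoxia replicate 1. The change in the mean of both genotypes was 0.998 ± 0.22 on the log2 scale over all arrays (SE, limma adjusted p = 0.0713, exact permutation within genotypes p = 0.025, two-sided, smallest possible 0.005). Without both arrays the change was 1.34 ± 0.20 (SE, limma adjusted p = 0.000416), and within genotypes it was 1.29 in KO (limma adjusted p = 0.0269) and 1.39 in WT (limma adjusted p = 0.0462). With only KO hyperoxia replicate 1 left out the KO change was called at a higher limma adjusted p of 0.0488. With only WT air replicate 3 left out the WT change was not called. Leaving out WT hyperoxia replicate 1 alone also brought the mean of both genotypes past the threshold (1.17, limma adjusted p = 0.015). That array, which is neither of those that stood apart, had the lowest Hmox1 of its group, 730. Leaving it out therefore raises the change, and the call without it is no separate support. Among omissions of a single array, only this one and those of the arrays that stood apart gave the call in the mean of both genotypes.

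Nqo1, the quinone reductase often used as a readout of NRF2, read 167, 327 and 384 in KO hyperoxia lungs, against 158, 218 and 190 in KO air lungs, and 276, 364 and 266 in WT hyperoxia lungs, against 250, 209 and 353 in WT air lungs. Aox1, aldehyde oxidase 1, read 183, 409 and 380 in KO hyperoxia lungs, against 256, 214 and 206 in KO air lungs, and 298, 289 and 296 in WT hyperoxia lungs, against 144, 148 and 322 in WT air lungs. In both genes the open points in the plot of P5 signals are again the arrays on the far side of their group. The change in the mean of both genotypes was 0.34 for Nqo1 and 0.48 for Aox1 over all arrays, with limma adjusted p of 0.797 and 0.729. Without both arrays it was 0.59 for Nqo1 (limma adjusted p = 0.0483) and 0.82 for Aox1 (limma adjusted p = 0.0418), and neither was called within a genotype.

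**Figure D1:**
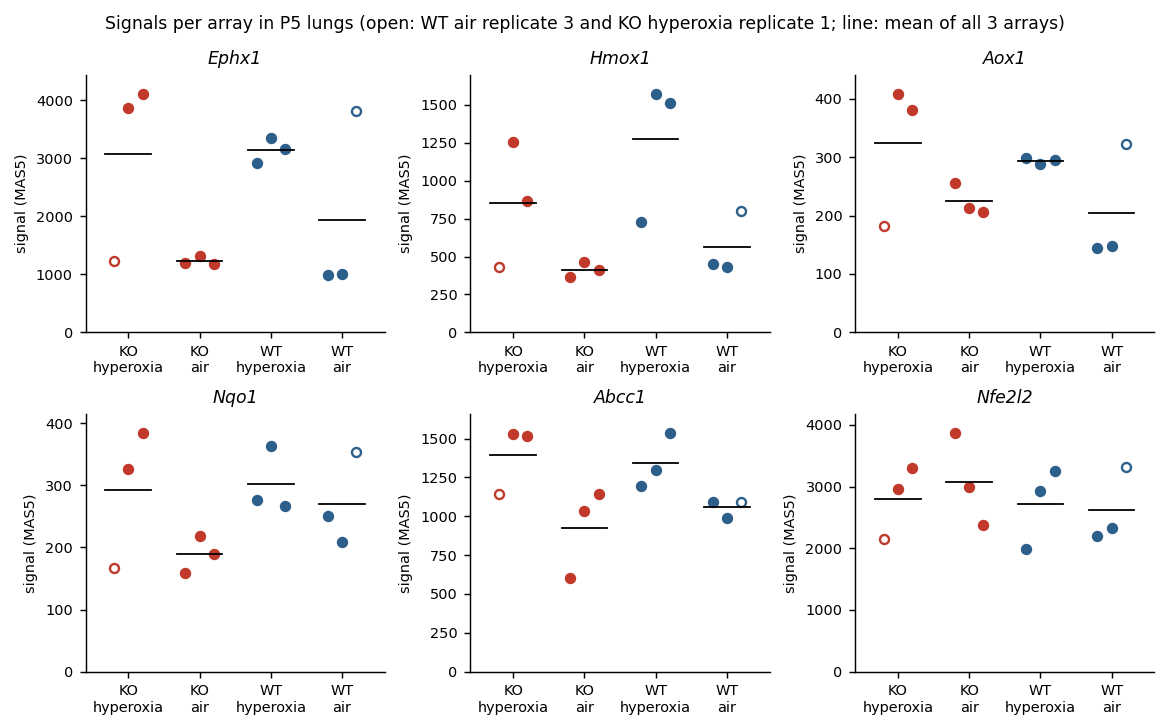
Signal of 6 genes on each P5 array (vertical axes, MAS5 signal, linear from 0) in KO hyperoxia, KO air, WT hyperoxia and WT air lungs. Points are arrays, black lines are means of 3, and open points are KO hyperoxia replicate 1 and WT air replicate 3; for Ephx1 these read 1235 and 3806, each at the level of the opposite exposure.

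Abcc1, an exporter of glutathione conjugates, was the gene whose P5 groups did not overlap in either genotype with all arrays kept. It read 1143, 1528 and 1514 in KO hyperoxia lungs, against 601, 1036 and 1142 in KO air lungs, and 1192, 1299 and 1537 in WT hyperoxia lungs, against 1093, 991 and 1093 in WT air lungs. By its other probe set the KO groups overlapped, at 202, 170 and 130 in KO hyperoxia lungs, against 92.3, 161 and 177 in KO air lungs, and the change in the mean of both genotypes was 0.19. The separation is narrow, with KO hyperoxia replicate 1 barely above the highest KO air array. The change in the mean of both genotypes was 0.47 ± 0.17 on the log2 scale (SE, limma adjusted p = 0.456), with an exact permutation p of 0.005, the smallest that within-genotype permutation allows. Groups did not overlap for 15.3% of all genes in KO and 17.2% in WT.

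Nfe2l2 itself did not pass the test with oxygen. It read 2144, 2957 and 3309 in KO hyperoxia lungs, against 3870, 2996 and 2373 in KO air lungs, and 1984, 2936 and 3252 in WT hyperoxia lungs, against 2193, 2336 and 3323 in WT air lungs, with overlap in both. The mean change was -0.04 ± 0.18 (SE) on the log2 scale. Without both arrays mean Nfe2l2 was 3133 in KO hyperoxia and 3080 in KO air, 2724 in WT hyperoxia and 2264 in WT air. Fth1, the heavy chain of the iron store ferritin, changed by 0.00 ± 0.08 (SE), the smallest SE of the 9 genes. Blvrb, biliverdin reductase B, which also reduces flavins, changed by 0.01 ± 0.25 (SE). Without both arrays mean Fth1 was 18345 in KO hyperoxia and 18333 in KO air, 18683 in WT hyperoxia and 17071 in WT air. Mean Blvrb was then 1014 in KO hyperoxia and 803 in KO air, 919 in WT hyperoxia and 1035 in WT air. Neither of these genes nor Nfe2l2 was called for oxygen without both arrays. Osgin1, an oxidative stress induced growth inhibitor, read 267 to 280 in WT hyperoxia lungs and 188 to 228 in WT air lungs. These groups did not overlap, as for 17.2% of all genes. In KO it read 95.5, 292 and 220 in hyperoxia lungs, against 180, 142 and 139 in air lungs. The overlap in KO came from hyperoxia replicate 1 alone, and Osgin1 was called neither over all arrays nor without both. The Ftl1/Ftl1-ps2 probe set, for the light chain of ferritin, read 10747, 13923 and 13660 in KO hyperoxia lungs, against 11199, 11102 and 12047 in KO air lungs, and 14188, 13863 and 13704 in WT hyperoxia lungs, against 10783, 11225 and 13897 in WT air lungs. Its lowest KO hyperoxia value and its highest WT air value were again on the arrays that stood apart, and its mean change was 0.19 ± 0.17 (SE, limma adjusted p = 1 over all probe sets) and 0.30 without both (limma adjusted p = 0.773).

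**Figure D2:**
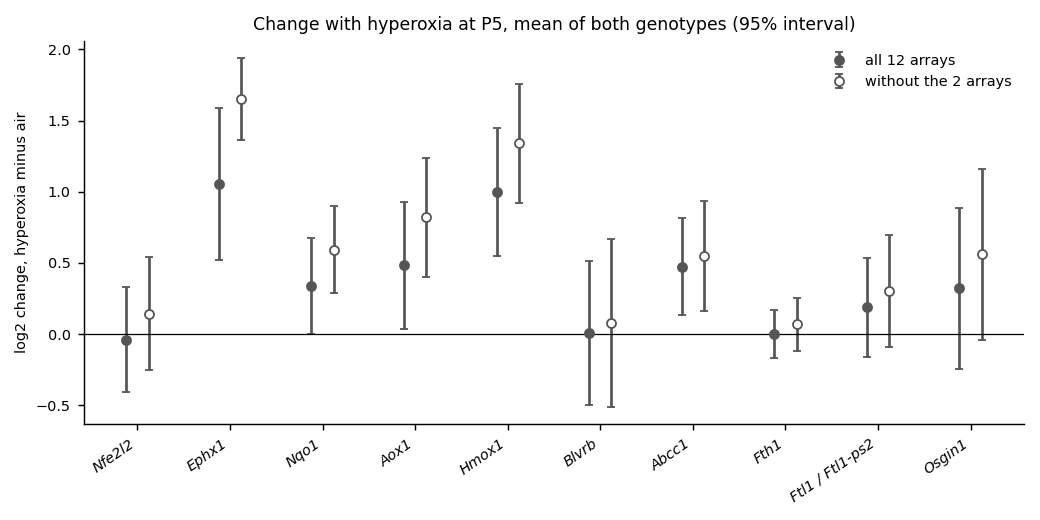
Change with hyperoxia at P5 as the mean of both genotypes (vertical axis, log2, hyperoxia minus air; error bars are 95% intervals of limma) for the 9 genes and the Ftl1/Ftl1-ps2 probe set, from all 12 arrays (filled) and without the 2 arrays that stood apart (open). Ephx1 stands at 1.06 and 1.65 and Hmox1 at 0.998 and 1.34, while Nfe2l2, Blvrb and Fth1 stay near 0.

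The difference between genotypes in the oxygen response was called for none of the 9 genes at P5, where 20 genes (0.15%) were called over all arrays and 31 (0.232%) without both, or at P56 (0 genes, 0%). One of the 9 had an unadjusted p under 0.05 at P56, Fth1, and none at P5, against 2.46% and 2.3% of all genes. For Ephx1 the response in KO minus that in WT was 0.13 with a 95% interval of -0.94 to 1.21 over all arrays and of -0.52 to 0.64 without both. For Hmox1 the interval was -1.14 to 0.66 over all arrays, so differences of about the size of the response itself were not detectable with 3 mice a group. At P56, after the newborn exposure, no gene of the whole series was called between hyperoxia and air in KO or in WT lungs (0%), and none of the 9 had an unadjusted p under 0.05, against 2.7% of genes in KO and 5.1% in WT.

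Markers of other tissues also moved with the groups at P5. Of 9 markers of squamous epithelium 6 rose, and of 16 of striated muscle 8 rose, in KO hyperoxia against KO air lungs. Their summed signals were 6855 to 11850 and 36152 to 46753 in KO hyperoxia lungs, against 438 to 1150 and 17010 to 42004 in KO air lungs. KO hyperoxia replicate 1 had as much of both, 8736 and 46753, as the other KO hyperoxia arrays while its Ephx1 read like air. In WT no marker of either list passed the test, and WT air replicate 1 had a squamous sum of 10314, against at most 1198 on the other WT P5 arrays. Summed liver markers were 478 to 589 in KO hyperoxia and 760 to 4545 in KO air lungs. In WT they were 4452 to 12956 in hyperoxia and 24673 to 81541 in air lungs. Summed club cell markers were 59953 to 80007 in KO hyperoxia and 66194 to 72357 in KO air lungs, and 79172 to 86896 in WT hyperoxia and 65333 to 82231 in WT air lungs. The lowest of these in KO, 59953, was on hyperoxia replicate 1, and the highest in WT air, 82231, on replicate 3. Macrophage, alveolar and ciliated cell markers had the same order on these arrays, with sums of 22311, 111218 and 1641 on KO hyperoxia replicate 1, the lowest of its group, and of 29232, 132503 and 2580 on WT air replicate 3, the highest of its group. Without both arrays the macrophage sums were 24396 and 25570 in KO hyperoxia, against 22034 to 23195 in KO air lungs, and 23485 to 29176 in WT hyperoxia, against 19513 and 22599 in WT air lungs, without overlap. The part of these markers in the Ephx1, Hmox1, Nqo1 and Aox1 values was not tested.

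Of the list of 32 other NRF2 targets 27 were measured. Over all P5 arrays 1 of 27 was called in the mean of both genotypes, Slc7a11, the cystine transporter that feeds glutathione synthesis (0.98 on the log2 scale, limma adjusted p = 0.0434). The 2 arrays that stood apart did so by the levels of p53 and NRF2 targets. Larger counts and changes of this list without them follow in part from that choice. Without both arrays 9 of 27 rose and none fell, beside 1.12% of all genes called. Among them were Gpx2, a glutathione peroxidase (2.96), Gclc, the catalytic subunit of the first enzyme of glutathione synthesis (1.28), Slc7a11 (1.26) and Aldh3a1, an aldehyde dehydrogenase (1.24), with limma adjusted p from 0.000101 to 0.0135. By genotype the list had 7 called of 27 in KO lungs, beside 0.704% of all genes, and 2 in WT lungs, beside 0.127%, and this difference in number was not tested. Its median change was 0.52 without both arrays, beside -0.01 over all genes. None of the 8 NRF2 regulators, Keap1 and Bach1 among them, none of 8 heme synthesis genes and none of 23 other genes of heme breakdown and iron handling passed the test in that mean.

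At E19, KO lungs had lower Osgin1 and Blvrb and higher Aox1 than WT lungs, 3 of 9 genes called against 2033 genes (15.2%) in the series, with 6.95% of all genes called higher and 8.28% called lower in KO. Osgin1 read 119, 108, 121 and 149 in KO lungs, against 183, 804, 305 and 824 in WT lungs. The groups did not overlap, and the WT lungs spread from 183 to 824. Osgin1 was at 0.319 of the WT level (log2 -1.65 ± 0.34 SE, limma adjusted p = 0.00149, exact permutation p = 0.0286, two-sided, the smallest possible). Blvrb read 404, 1185, 959 and 851 in KO lungs, against 1089, 2373, 1800 and 4283 in WT lungs. The KO array of 1185 lay above the lowest WT array, and the fold was 0.382 (log2 -1.39 ± 0.30 SE, limma adjusted p = 0.0026, exact permutation p = 0.0571).

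Aox1 read 568, 263, 155 and 292 in KO lungs, against 135, 98.7, 189 and 129 in WT lungs at E19. Its change of 0.97 ± 0.27 on the log2 scale (SE, limma adjusted p = 0.0142) rests in part on KO replicate 1, the array with the high 3'/5' control ratio, and was 0.66 (limma adjusted p = 0.0693) without it. With array weights it was 0.56 (limma adjusted p = 0.255). Hmox1 read 265, 356, 350 and 332 in KO lungs, against 402, 591, 402 and 619 in WT lungs, without overlap (log2 -0.57, exact permutation p = 0.0286, limma adjusted p = 0.151). Groups did not overlap for 10.1% of all genes. When only the 8 E19 arrays were fitted, none of the 9 genes was called, with limma adjusted p of 0.162 for Osgin1, 0.209 for Blvrb and 0.256 for Aox1. Without both P5 arrays, which lowers the shared estimate of the spread, Ephx1 was called too (0.59, limma adjusted p = 0.0117), with 927 to 1629 in KO lungs and 664 to 937 in WT lungs.

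Liver and blood markers moved with genotype at E19. All 15 liver markers fell in KO lungs, with a median change of -4.65, and 12 of 15 erythroid markers fell, with a median of -1.87. The summed liver signal was 807 to 11548 in KO lungs, against 3337, 240505, 138442 and 274681 in WT lungs, and the summed erythroid signal was 8803 to 12117 in KO lungs, against 9843, 33937, 19126 and 42790 in WT lungs. WT replicate 1 thus had liver and erythroid sums within the KO range. Its Osgin1, at 183, lay above all 4 KO arrays, and its Blvrb, at 1089, within them. Markers of other cells moved too, with 4 of 9 squamous markers and 3 of 11 neutrophil markers lower, and with 6 of 11 club cell, 6 of 13 alveolar, 3 of 16 striated muscle and 3 of 15 macrophage markers higher in KO lungs. WT replicate 1 had the highest squamous sum, 14366, and KO replicates 3 and 4 had striated muscle sums of 112066 and 129574, against at most 69914 in WT lungs. The part of liver, blood and these other cells in the Osgin1 and Blvrb differences was not tested.

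Of 8 heme synthesis genes measured 5 fell in KO lungs at E19, where 8.28% of all genes fell and 6.95% rose. They included Alad, the second enzyme of the path (-1.31 on the log2 scale, limma adjusted p = 0.000512), Cpox (-1.33) and Ppox (-1.49), its late oxidases, and Urod (-0.66). Of 23 other genes of heme breakdown and iron handling 7 fell and 2 rose, with Hpx, the plasma heme carrier hemopexin made in liver, at -3.85 and Tfr2, transferrin receptor 2, at -1.59, and with Slc39a8, a metal importer, at 1.15. Of the other NRF2 targets 4 fell and 2 rose of 27, with Abcc2, a canalicular exporter, at -2.38 and Gsta3, a glutathione transferase, at -1.98, and with Aldh3a1 at 1.10 and Abcc4, another exporter, at 0.82. Bach1, the repressor that competes with NRF2, rose by 0.89 (limma adjusted p = 0.00229) and Mafk by 0.44. The erythroid and liver marker sums above moved with these lists too, and their part in these changes was not tested.

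**Figure D3:**
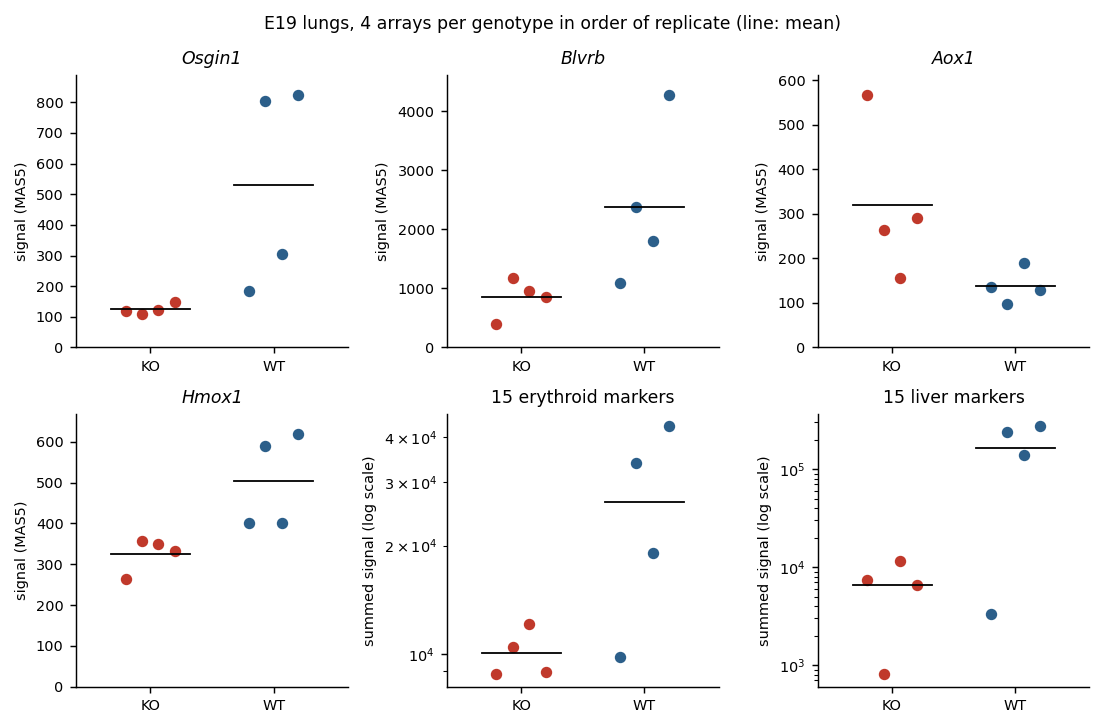
E19 lungs, with KO left of WT: signals of Osgin1, Blvrb, Aox1 and Hmox1 (vertical axes, MAS5 signal, linear from 0) and summed signals of 15 erythroid and 15 liver markers (log axes). Points are arrays in order of replicate and lines are means of 4; WT replicate 1 has the lowest Osgin1 of the WT arrays, 183, and marker sums of 9843 and 3337, within the KO range.

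At P5 no gene of the 9 was called between genotypes, where 5 genes (0.0375%) were called in air and 25 (0.187%) in hyperoxia, and none had an unadjusted p under 0.05, against 5.57% and 3.02% of all genes. Without both arrays that stood apart none of the 9 was called either. Their median change, KO minus WT, was -0.35 over all arrays and -0.10 without both in air. In hyperoxia it was -0.08 over all arrays and 0.18 without both.

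At P56, Nqo1 signals were higher in KO than in WT lungs in both exposures, without passing the test in either. Nqo1 read 548, 433 and 437 in KO air lungs, against 306, 264 and 264 in WT air lungs, and 303, 338 and 394 in KO hyperoxia lungs, against 213, 203 and 207 in WT hyperoxia lungs. Every KO array was above every WT array of the same exposure. Groups did not overlap, in either direction, for 34.5% of all genes in air and 16.8% in hyperoxia. The change was 0.71 in air and 0.66 in hyperoxia on the log2 scale, with limma adjusted p of 0.203 and 0.436, and no gene of the 9 was called in either, where 10 genes (0.0749%) and 5 (0.0375%) were called in the series. At an unadjusted p under 0.05 there were 2 of 9 in each exposure, against 11.8% of all genes in air and 8.72% in hyperoxia. The mean of both exposures, a comparison chosen after seeing the data, was 0.68 ± 0.16 (SE, fold 1.61, limma adjusted p = 0.0254, exact permutation within exposures p = 0.005, the smallest possible), 1 of 9 genes against 343 (2.57%). Leaving out 1 array at a time moved it between 0.63 and 0.73. Its adjusted p passed 0.05, up to 0.0996, on leaving out any of WT air replicates 1, 2 and 3, KO air replicate 1 and KO hyperoxia replicates 2 and 3. With each array centred on its median it was 0.56 (limma adjusted p = 0.0658).

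Blvrb, which was lower in KO lungs at E19, read 876, 823 and 782 in KO air lungs, against 558, 525 and 447 in WT air lungs, and 666, 726 and 642 in KO hyperoxia lungs, against 449, 185 and 471 in WT hyperoxia lungs. The groups did not overlap in either exposure. Its change in the mean of both exposures was 0.80 ± 0.25 (SE, limma adjusted p = 0.0762), and 0.60 without the arrays of high 3'/5' ratio. Aox1 read 1575, 1632 and 1375 in KO air lungs, against 1228, 1036 and 1237 in WT air lungs, and 1576, 1634 and 1803 in KO hyperoxia lungs, against 1141, 1490 and 1059 in WT hyperoxia lungs, again without overlap (mean change 0.41, limma adjusted p = 0.336). Groups did not overlap for 34.5% of all genes in air and 16.8% in hyperoxia.

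The brightest probe set of each ferritin chain had higher signals in KO than in WT lungs in air. Fth1 read 28401, 29970 and 29434 in KO air lungs, against 21576, 21610 and 20858 in WT air lungs, without overlap, and overlapped in hyperoxia at 23551, 25262 and 28478 in KO lungs, against 22534, 25638 and 24620 in WT lungs. Its change in air was 0.45 ± 0.12 (SE, limma adjusted p = 0.0905), 0.20 ± 0.15 (SE) by its other probe set in the fit over all probe sets, and -0.08 after quantile normalization, so its direction depended on the scaling. By that other probe set the air groups overlapped, at 15675.5, 18642 and 17966 in KO lungs, against 15935, 13538.5 and 16158 in WT lungs. The Ftl1/Ftl1-ps2 probe set read 16317, 17917 and 17114 in KO air lungs, against 13629, 12375 and 12632 in WT air lungs, and 15767, 15193 and 15742 in KO hyperoxia lungs, against 13302, 8413 and 15102 in WT hyperoxia lungs. It did not overlap in either exposure (mean change 0.40, limma adjusted p = 0.229 over all probe sets, of which 1.95% were called). The other probe sets that name Ftl1 did not overlap in air but did in hyperoxia. In hyperoxia the next brightest read 11138, 10701 and 11572 in KO lungs, against 10472, 4546 and 11346 in WT lungs. The dimmest read 1360, 998 and 1042 in KO lungs, against 809, 939 and 1018 in WT lungs. The low WT value of 8413 was on the array of high 3'/5' ratio. Neither array of high ratio is in the P56 air groups. Leaving both out therefore keeps the changes in air and alters only the shared estimate of the spread. Fth1 was then called in air (0.45, limma adjusted p = 0.0195), as were 503 genes (3.77%), and in the mean of exposures (0.29, limma adjusted p = 0.0203), as were 1309 (9.81%). The Ftl1/Ftl1-ps2 probe set was then called too, in air (0.41, limma adjusted p = 0.0297) and in the mean of exposures (0.27, limma adjusted p = 0.0269), where 3.48% and 10.2% of all probe sets were.

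RNA quality moved with genotype at P56. The log2 ratio of the 3' to the 5' control probe sets was 0.68 to 1.05 in KO air lungs, against 0.21 to 0.36 in WT air lungs, and 0.54 to 1.55 in KO hyperoxia lungs, against 0.28 and 0.31 on the WT hyperoxia arrays other than replicate 2. Marker sums moved with genotype too. In air the groups did not overlap for club cell markers (132655 to 151542 in KO, against 93672 to 116417 in WT), alveolar markers (185443 to 203389 in KO, against 153354 to 165862 in WT), macrophage markers (48459 to 50902 in KO, against 39469 to 40264 in WT), neutrophil markers (13712 to 20433 in KO, against 7486 to 13072 in WT) or squamous markers (540 to 844 in KO, against 409 to 454 in WT), and liver markers were lower (1488 to 2100 in KO, against 2164 to 4527 in WT). In hyperoxia the club cell, alveolar and macrophage sums overlapped. In the mean of both exposures 2 of 11 club cell and 2 of 13 alveolar markers rose, and none of the macrophage, neutrophil, squamous or liver markers was called. The part of RNA quality and of these markers in the P56 values of Nqo1, Blvrb, Aox1 and the ferritin probe sets was not tested. Of 27 other NRF2 targets 1 rose in the mean of both exposures, Tkt, the transketolase of the pentose phosphate path (0.42, limma adjusted p = 0.0227), with a median of 0.17 for the list beside 0.04 for all genes. Among the other lists 1 of 11 related detoxification enzymes rose, the carbonyl reductase Cbr2 (0.40), 1 of 23 heme and iron genes, Pcbp2, an iron chaperone and RNA-binding protein (0.45), and none of 8 heme synthesis genes.

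**Figure D4:**
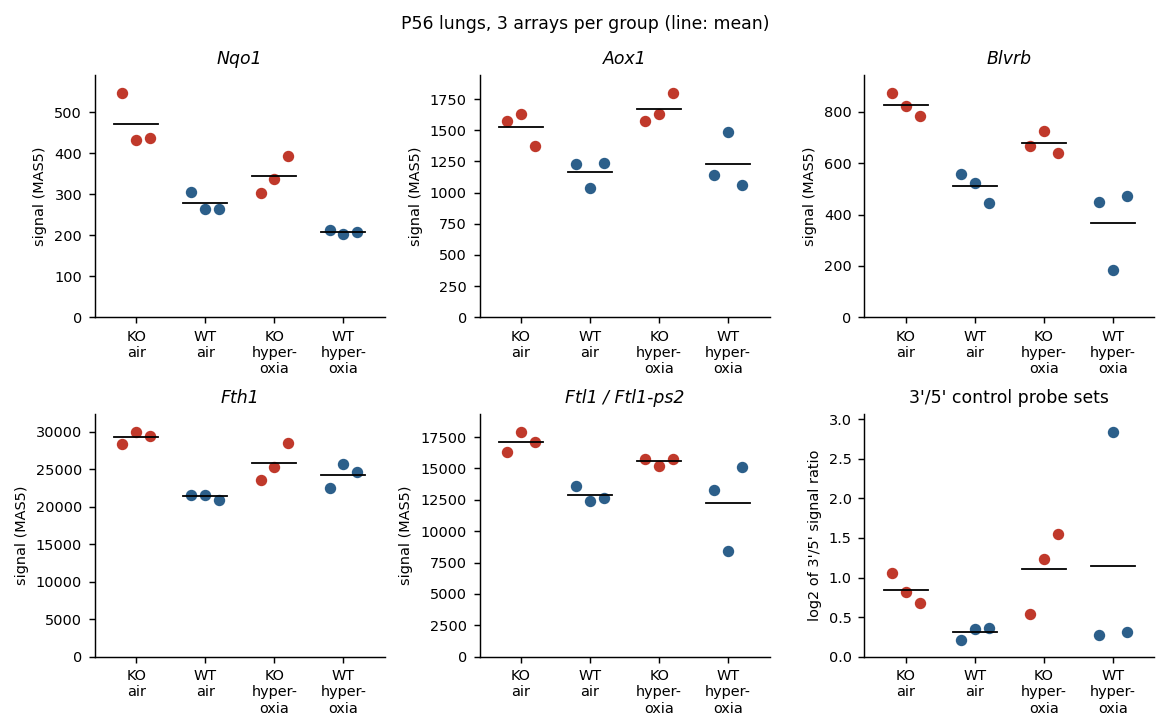
P56 lungs with KO left of WT in air and then in hyperoxia: signals of 4 genes and the Ftl1/Ftl1-ps2 probe set (vertical axes, MAS5 signal, linear from 0) and the log2 ratio of the 3' to 5' control probe sets. Points are arrays and lines are means of 3. All KO arrays lie above all WT arrays of the same exposure for Nqo1. Groups do not overlap for 34.5% of all genes in air and 16.8% in hyperoxia. WT hyperoxia replicate 2 has a ratio of 2.84.

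The genotype difference of Blvrb and Osgin1 differed between P56 and E19. The change in KO against WT at P56, as the mean of both exposures, minus that at E19 was 2.19 for Blvrb (95% interval 1.39 to 2.99, limma adjusted p = 0.00105) and 2.14 for Osgin1 (95% interval 1.25 to 3.03, limma adjusted p = 0.00239), 2 of 9 genes against 2253 (16.9%) in the series. This comparison too was chosen after seeing the data. At P56 Osgin1 read 431, 306 and 483 in KO air lungs, against 350, 255 and 326 in WT air lungs, and 547, 368 and 457 in KO hyperoxia lungs, against 385, 150 and 379 in WT hyperoxia lungs, with overlap in both. Most of the size of both differences thus came from E19. The liver and erythroid marker sums also moved with genotype there, and their part in these differences was not tested.

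With age, Aox1 and Ephx1 rose in both genotypes after birth. Between P56 and P5 in air, Aox1 rose 6.19-fold in KO (limma adjusted p = 4.22e-07) and 5.45-fold in WT (limma adjusted p = 1.13e-06). Its group means were 319, 225 and 1527 at E19, P5 and P56 in KO and 138, 205 and 1167 in WT. Ephx1 rose 3.65-fold in KO (limma adjusted p = 0.000359) and 2.74-fold in WT (limma adjusted p = 0.00464), or 4.25-fold in WT without both P5 arrays. The WT call of Ephx1 was lost without WT P5 air replicate 1 (1.13 on the log2 scale, limma adjusted p = 0.0526). In WT 2 of the 9 genes rose and 1 fell, against 3058 called genes (22.9%), 12.1% higher and 10.8% lower. In KO 6 rose and none fell, against 3947 (29.6%), 15.2% higher and 14.3% lower. Without both P5 arrays Nfe2l2 rose as well, by 0.66 in KO (limma adjusted p = 0.044) and 0.76 in WT (limma adjusted p = 0.0474). Neither array is in the KO air groups, so the KO change is the same over all arrays, where it was not called. Only the shared estimate of the spread differs for it.

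The other genes that rose in KO lungs between P56 and P5 were Nqo1 (1.22 on the log2 scale, limma adjusted p = 0.000259), Osgin1 (1.25, limma adjusted p = 0.0159), Abcc1 (0.70, limma adjusted p = 0.0247) and Fth1 (0.68, limma adjusted p = 6.55e-05, 0.19 after quantile normalization). In WT lungs these changed by 0.06, 0.55, 0.57 and 0.25 without passing the test, and the difference between genotypes in the P56 to P5 step in air was called for none of the 9 genes and none of the series (0%), with 3 of the 9 at an unadjusted p under 0.05, against 11.5% of all genes. The call of Abcc1 was lost with its other probe set (0.46, limma adjusted p = 0.245), with median centring (0.58, limma adjusted p = 0.135), and without KO P5 air replicate 1 (0.42, limma adjusted p = 0.204) or KO P56 air replicate 3 (0.60, limma adjusted p = 0.0994). That of Osgin1 was lost without KO P5 air replicate 3 (limma adjusted p = 0.0512), KO P56 air replicate 1 (limma adjusted p = 0.0534) or replicate 3 (limma adjusted p = 0.0628). In WT lungs Blvrb fell to a mean of 509.9 at P56, against 1073 at P5 (log2 -1.03, limma adjusted p = 0.0322). The change was -0.98 without both P5 arrays (limma adjusted p = 0.09), and the call was lost on leaving out any of 5 of the 6 arrays. In KO lungs its change was 0.04. Of the liver markers 14 of 15 and of the erythroid markers 8 of 15 fell over the same interval in WT, and none and 2 fell in KO. The part of these markers in the Blvrb values was not tested.

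Across birth, 4 of the 9 genes were called in WT lungs, against 1946 genes (14.6%), 8.36% higher and 6.23% lower, and none in KO lungs, against 461 (3.45%), where 2 of the 9 had an unadjusted p under 0.05. Abcc1 read 1093, 991 and 1093 at P5, against 667, 592, 505 and 327 at E19 in WT (2.04-fold, limma adjusted p = 0.00227), and 0.65 on the log2 scale by its other probe set (limma adjusted p = 0.103). Nfe2l2 fell in WT to 2193, 2336 and 3323 at P5, against 4770, 4166, 5409 and 5077 at E19 (log2 -0.90, limma adjusted p = 0.0109), without overlap, as for 29.5% of all genes. This call was lost without WT P5 air replicate 1 (-0.79, limma adjusted p = 0.0653) or replicate 2 (-0.83, limma adjusted p = 0.0613). In KO it read 3870, 2996 and 2373 at P5, against 6140, 4757, 3403 and 2296 at E19, with overlap. Blvrb (-0.97, limma adjusted p = 0.0446) and Fth1 (-0.34, limma adjusted p = 0.032) fell in WT as well. The call of Blvrb was lost on leaving out any of 6 of the 7 arrays and that of Fth1 on leaving out any of 4, and Fth1 was at -0.11 after quantile normalization (limma adjusted p = 0.362). Without both P5 arrays Blvrb was at -1.02 (limma adjusted p = 0.0904). Cell markers moved over this step in WT as well. Liver sums were 24673 to 81541 at P5, against 3337, 240505, 138442 and 274681 at E19, and erythroid sums 13342 to 14913 at P5, against 9843, 33937, 19126 and 42790 at E19, so both were lower at P5 than on 3 of the 4 E19 arrays. Ciliated cell sums were 1674 to 2580 at P5, against 2613 to 3702 at E19, and club cell sums 65333 to 82231 at P5, against 50754 to 64379 at E19. Of the marker lists, 4 of 11 club cell, 3 of 15 macrophage and 3 of 13 alveolar markers rose, and 2 of 9 ciliated cell and 2 of 15 erythroid markers fell. Their part in the WT values was not tested. The difference between genotypes in the step across birth was called for none of the 9 genes, against 25 (0.187%), with 2 of the 9 at an unadjusted p under 0.05 and 11.6% of all genes.

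**Figure D5:**
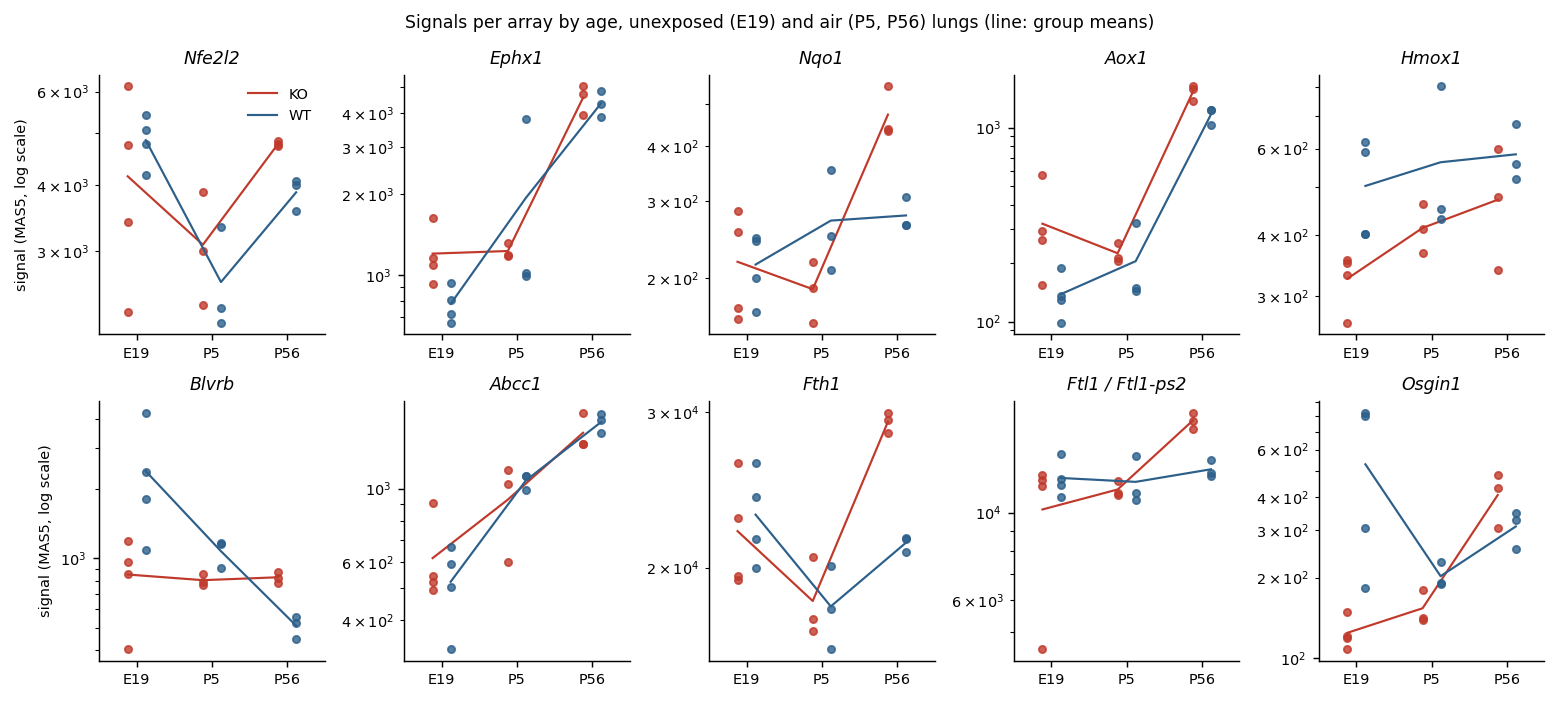
Signals of the 9 genes and the Ftl1/Ftl1-ps2 probe set (vertical axes, MAS5 signal, log scale) at E19 without exposure and at P5 and P56 in air, with KO left of WT at each age. Points are arrays and lines join group means; Aox1 and Ephx1 are highest at P56 in both genotypes, and Blvrb has its widest spread in WT lungs at E19, 1089 to 4283.

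In the wider lists, between P56 and P5 in air 18 of 27 other NRF2 targets rose in KO, beside 15.2% of all genes, and 11 in WT, beside 12.1%, and none fell in either. Gpx2 rose by 4.67 on the log2 scale in KO and 2.85 in WT, Aldh3a1 by 3.83 and 3.28, and Gsta3 by 3.50 and 2.95. Of 11 related detoxification enzymes 7 rose in KO and 6 in WT, with Aox3, a second aldehyde oxidase, at 2.89 in KO and 2.84 in WT. Of 23 heme and iron genes 9 rose and 1 fell in KO, and 7 rose and 3 fell in WT (1 fell without both P5 arrays), with Hamp, the iron hormone hepcidin, at 2.92 in KO and 1.53 in WT. Markers of several cell types rose over the same interval, 9 of 11 club cell, 7 of 15 macrophage, 6 of 13 alveolar and 7 of 9 ciliated cell markers in KO, and 6, 2, 7 and 4 of them in WT. The macrophage sums were 48459 to 50902 at P56, against 22034 to 23195 at P5, in KO, and 39469 to 40264 at P56, against 19513 to 29232 at P5, in WT. The alveolar sums were 185443 to 203389 at P56, against 118519 to 138810 at P5, in KO. The part of these markers in the values of the members, Aox1 and Ephx1 among them, and of the wider lists was not tested.

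As plain ratios of mean signals, with no offset, Aox1 had the widest range of means over the 10 groups, 12.1-fold between KO P56 hyperoxia (1671) and WT E19 (138), and Fth1 the narrowest, 1.66-fold between KO P56 air (29268) and KO P5 hyperoxia (17685). Blvrb ranged 6.49-fold, highest in WT E19 (2386) and lowest in WT P56 hyperoxia (367.9), Ephx1 6.07-fold, Osgin1 4.25-fold, Hmox1 3.90-fold, Abcc1 3.75-fold, Nqo1 2.5-fold and Nfe2l2 1.95-fold. In the order of the groups, the 4 P56 groups led for Aox1, with WT P56 air (1167) above KO P5 hyperoxia (324) by more than either SD. For Ephx1 the 4 P56 groups also came first, but WT P5 hyperoxia (3139) and KO P5 hyperoxia (3070) did not differ beyond the larger SD, nor did KO P5 hyperoxia and WT P5 air (1936). For Hmox1 WT P5 hyperoxia (1271) came first, then KO P5 hyperoxia (851) and WT P56 air (584), and neither step was larger than the larger SD of its pair.

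The genes whose log2 values ran most like each member over all 32 arrays are given as a description, since arrays share age, genotype and exposure. Ephx1 ran most like Akr1b8 (Pearson's r = 0.945), Lgals3 (0.931) and Gpx2 (0.929). Hmox1 ran like Eda2r (0.824), Zmat3 (0.808) and Ddit4l (0.789), Nqo1 like Ninj1 (0.796), Tomm40l (0.788) and Abcb6 (0.783), and Aox1 like Cyp2b10 (0.97), Efemp1 (0.966) and Sptssb (0.964). Blvrb ran like Nit2 (0.932), Fkbp11 (0.92) and Dctpp1 (0.905), and Osgin1 like Fetub (0.884), Acox2 (0.883) and Acsm1 (0.876). Fth1 ran like Hopx (0.951), Npc2 (0.927) and Eif4a2 (0.904), the Ftl1/Ftl1-ps2 probe set like Gss (0.925), Cbr1 (0.918) and Tubb4b (0.916), Abcc1 like Sema3e (0.944), Tmod2 (0.936) and Pqlc3 (0.933), and Nfe2l2 like Ctsc (0.925), Cd24a (0.924) and Cyp39a1 (0.912).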

How the data were processed

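Lung RNA of single mice was hybridised to Affymetrix mouse expression arrays after 3' IVT amplification, per the labels' protocols. The authors deposited 1 linear intensity per probe set and array, with MAS5 named in the submitters' processing notes and no version. Groups were taken from the labels alone. The 45101 probe sets were named from the platform annotation.

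Here 26.3, their 25th percentile, was added to the intensities, log2 was taken and no other scaling was applied. A probe set was kept where 3 or more arrays read above 100.4, the overall median. Of those with 1 gene symbol the one with the highest mean stood for its gene, which gave 13345 genes. All 32 arrays entered 1 limma 3.58.1 fit (R 4.3.3) of group means with 22 residual degrees of freedom (eBayes, trended prior). The 17 contrasts, and 3 added after seeing the data, were tested two-sided with Benjamini-Hochberg adjustment and a threshold of 0.05. Single values were also tested by exact permutation of arrays. The fit was tested on simulated data. Alternatives changed the offset, the filter, the scaling, the probe set, the prior, the arrays in the fit, array weights and the replicate block, or left arrays out.

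The members and lists were chosen with earlier results of these data known, so no list count is independent support. Genes named are the members, up to 4 called genes per list and comparison with the largest change, Gsr, and the 3 most alike genes of each member. Of the list genes, Alas2, Tfrc, Ltf, Hp, Cd163, Aldh1a1, Abcc5 and Slc48a1 stand in a pair of lists each. List sums are the summed signals of the measured genes. Where replicates are separate mice, p-values measure the spread between these mice. The number of arrays limits the precision. Upstream stretches were read from RefSeq promoters of GRCm38.p6.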

Additional observations from a re-analysis of the deposited data

Results flagged for a closer look

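In KO lungs at E19, replicate 1 was far from the other 3 arrays for Abcc1, at 905 against at most 544, and for the Ftl1/Ftl1-ps2 probe set, at 4518 against at least 11713. It is the array with the highest 3'/5' control ratio of the series. The KO and WT groups at E19, of 4 arrays each, were looked at for each of the 10 genes. Of these 20 sets of values, which share the same arrays, 2 stood out in this way. Both were on KO replicate 1, so they are not separate events to set beside a rate by chance.

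The genotype difference at P56 and that at E19 differed by test for Osgin1 (2.14 on the log2 scale, P56 minus E19) and for Blvrb (2.19). Both kept their call in all 33 alternatives run for each, from 1.65 to 2.53 for Osgin1 and from 1.65 to 2.51 for Blvrb.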

How the results depend on the processing

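Each count of called genes among the 9 was recomputed under the alternatives for its comparison, and 389 of 436 counts stayed within 1.5 times. Array weights, estimated from the data between 0.0468 and 10.4, moved most counts. They gave 6 genes against 0 for hyperoxia in KO, in WT and in the mean of both genotypes at P5. For KO against WT they gave 1 at P5 hyperoxia, 3 at P56 air and 5 at P56 hyperoxia against 0 each, and 5 against 1 in the mean of exposures at P56. They also gave 1 against 0 across birth in KO, 7 against 3 for P56 against P5 in WT, 4 against 2 for the genotype difference of P56 against E19, and 3 against 0 for that of P56 against P5 in air. Fitting the compared groups only gave 0 genes at E19 against 3, 3 at P56 air against 0, 4 in the mean of exposures against 1, 2 across birth in WT against 4, 6 for P56 against P5 in WT against 3, and 2 for the difference of P56 against P5 in air against 0. Without both P5 arrays the oxygen counts at P5 were 2 in KO, 2 in WT and 4 in the mean. Without both arrays of high 3'/5' ratio they were 1 at P56 air, 2 in the mean of exposures, 1 across birth in KO and 5 for P56 against P5 in WT. Neither array is in the groups compared at P56 air or for P56 against P5 in WT, where only the shared estimate of the spread changed. An offset of 100 gave 1 in the mean of genotypes at P5, median centring gave 0 in the mean of exposures at P56, and no filter and the replicate block each gave 2 across birth in WT. Leaving out 1 array at a time gave 0 to 1 for the genotype difference across birth, 0 to 2 for oxygen in KO, 0 to 1 in WT and 0 to 2 in their mean at P5, 0 to 2 in the mean of exposures at P56, 0 to 1 across birth in KO, 2 to 5 in WT, and 1 to 3 for P56 against P5 in WT. Deviations of same-numbered arrays from their group means correlated over 0.1 in 10 of 40 pairs (-0.41 to 0.28), and in 1 of 13 pairs of groups, KO and WT at P5 hyperoxia, in all 3 (0.253, 0.107 and 0.169), where the block left the count at 0. The labels do not say that the numbers mark a litter or batch. The replicate block changed no other count by over 1.5 times. It took the call from Blvrb (-0.79, limma adjusted p = 0.114) and Fth1 (-0.33, limma adjusted p = 0.063) across birth in WT.

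Of 734 values of 34 single results, 631 kept direction and side of the threshold, 52 lost the call, 49 gained it and 2 turned. The values that turned are those of Fth1 in KO against WT after quantile normalization, -0.080 at P56 air and -0.12 in the mean of exposures. Median centring shifted the median of all genes by 0.28 for KO against WT at E19, where Osgin1, Blvrb and Aox1 kept their calls. Signal over background is not given here, since the values carry no detection calls. The causes of these differences were not tested.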
